A study of Mus musculus with 3 samples.

Results

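The sites described here are predicted m6A sites in which a pyrimidine, T or C, takes the place of the purine just before the A of the methylation consensus. They were picked by sequence alone from 1 list of predicted sites. A site was taken when the GRCm38 bases on its strand were not C at the place 2 before the A, T or C directly before it, C directly after it and not G at the place 2 after it. Of 19301 listed sites, 479 met this rule, a share of 2.48% (95% Wilson interval 2.27 to 2.71%). The list came from miCLIP2 of poly(A)+ RNA of RAW264.7, an established mouse macrophage cell line, grown without treatment. The 3 biological replicates were crosslinked with a rabbit antibody against m6A, and their peaks were merged into a single list. The series text calls the line human, whereas the samples carry the mouse as organism and each listed site lay at an A of the mouse genome. The list is of 1 condition and carries neither read counts nor separate replicate values, so how deeply a site was read, and how far replicates differed at it, cannot be given.

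Among the chemical marks that messenger RNA carries away from its ends, N6-methyladenosine, or m6A, occurs most often. A complex built around the methyltransferase METTL3 places it in nuclear RNA, mostly in the consensus DRACH, where D is any base but C, R is a purine and H is any base but G, and reader proteins of the YTH family bind it and guide splicing, translation and decay of the transcript. The antibody crosslinks close to the modified base, and m6Aboost, a machine learning model, separates likely m6A from other crosslink positions by the neighbouring bases, the part of the transcript, how strong the signal is for that gene and reads in which C turned to T, and gives each a score. That score is the model's vote for a site and not the fraction of RNA that is methylated.

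Markers of the cell type were looked up in the whole list. Of 12 macrophage markers, 7 had listed sites. Among them Csf1r, the receptor for macrophage colony-stimulating factor, had 11, Cd14 had 13, Spi1, Cebpb and Fcgr1 had 6 each and Lyz2 had 2. Adgre1, Cd68, Itgam, Fcgr3 and Mrc1 had no site. None of the 5 markers of embryonic stem cells, 4 of fibroblasts, 4 of epithelium, 4 of T cells or 4 of B cells had a site. A site shows that the transcript was read, while a gene without a site may still be expressed. Csf1r, Cd14 and Fcgr1 were also among the genes with a pyrimidine site.

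The rule admits 18 pentamers, and the pyrimidine sites were concentrated in a few of them. GTACT held 290 of the 479 sites, or 60.5% (56.1 to 64.8%). ATACT followed with 71 sites, TTACT with 37, GTACA with 35 and GCACT with 26. Beyond these, GTACC held 8 sites, ACACT 5, TCACT 4, ATACC 1, TTACA 1 and TTACC 1. The remaining 7 pentamers held none, and 124853 of the 262142 A in such motifs in the exons of the chosen transcripts belonged to them. The model reads these bases, and per the study's supplement peaks at the rarest pentamers were left out of its positive training set. Whether these pentamers were among those left out was not tested. T stood before the A in 444 sites, 92.7% (90.0 to 94.7%), and C in 35. All intervals given for shares are 95% Wilson intervals, those of differences are Newcombe intervals, and both cover counting error only: the sites are not replicates, and sites of 1 transcript share their reads.

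How often each motif was listed was counted over every A of that motif in the exons of the chosen transcripts of genes with a site. A with a pyrimidine before it was listed 1.55 times per 1000 (1.41 to 1.71) and DRACH A 45.2 times per 1000 (44.5 to 45.9), a 29.2-fold difference. With T before the A the rate was 3.82 per 1000 (3.46 to 4.23), and with C 0.172 per 1000 (0.119 to 0.248). GTACT stood apart with 246 of 9767 A listed, or 25.2 per 1000 (22.3 to 28.5). This rate was above that of 10 of the 18 DRACH pentamers, and for 8 of them the intervals were apart. For 7 DRACH pentamers the whole interval lay above that of GTACT. These rates are not methylation rates, because read depth differs between transcripts and m6Aboost reads the motif.

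Each pyrimidine pentamer was set beside the DRACH pentamers that share its other 4 bases. GGACT was listed 166 times per 1000 and GAACT 113 times, 6.60-fold and 4.49-fold the rate of GTACT. The next pentamer, ATACT, at 6.07 per 1000 (4.70 to 7.83), was listed 16.7-fold less than AGACT and 6.99-fold less than AAACT. For TTACT, at 2.72 per 1000 (1.95 to 3.80), the rate was 23.4-fold below that of TGACT and 7.72-fold below that of TAACT. Among pentamers that open with GT, the gap was wider where the last base was not T: GTACA, at 2.49 per 1000 (1.76 to 3.54), was 35.5-fold below GGACA, and GTACC, at 0.785 per 1000 (0.398 to 1.55), was 70.4-fold below GGACC. The pentamer GCACT, the most listed pentamer with C before the A, was 124-fold below GGACT at 1.34 per 1000 (0.883 to 2.02). In the 5 pentamers with most pyrimidine sites, the gap was wider to the partner with G than to the partner with A.

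Places outside the pyrimidine also differed from DRACH sites. T closed the pentamer in 90.4% (87.4 to 92.7%) of the pyrimidine sites and in 63.9% of the DRACH sites, a difference of 26.5 percentage points (23.4 to 28.9). G opened it in 74.9% against 62.1%, a difference of 12.8 points (8.67 to 16.5). The rule does not reach beyond the pentamer, yet the bases on both sides differed as well. G followed directly in 56.8% (52.3 to 61.1%) against 39.9%, and T at the next place in 54.5% (50 to 58.9%) against 36.1%, differences of 16.9 points (12.3 to 21.3) and 18.4 points (13.8 to 22.8). Both stood together, as GT, after 128 of the 479 sites, 26.7% (23.0 to 30.9%), and after 12.4% of the DRACH sites. Neither was found after 15.4% of the pyrimidine sites (12.5 to 19%), against 36.4% of the DRACH sites. Upstream, T directly before the pentamer was more frequent, at 37.8% against 26.8%.

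The bases after the pentamer differed also with the pentamer held fixed. Of the 290 GTACT sites, 59.3% (53.6 to 64.8%) were followed by G, against 37.4% of 3739 GGACT sites and 34.2% of all GTACT in the exons. T at the next place was found in 53.1% (47.4 to 58.8%) of GTACT sites, against 30.8% of GGACT sites and 28.5% of all exonic GTACT. Directly before the pentamer, T stood in 40% (34.5 to 45.7%) of GTACT sites, close to the 38.0% of all exonic GTACT. One place further upstream, A stood in 40% (34.5 to 45.7%) of GTACT sites, against 28.5% of GGACT sites and 28.1% of all exonic GTACT. All DRACH sites together had A there in 39.3%, so GTACT sites differed from them by only 0.746 points (-4.77 to 6.52). The heptamer GTACTGT was the most frequent, with 80 sites. In exons it was listed 74.3 times per 1000 (58.9 to 93.3), whereas GTACT followed by neither of these bases was listed 8.40 times per 1000 (6.13 to 11.5). As a ratio, though not as a difference, the spread was smaller for GGACT, at 220 per 1000 (199 to 243) for GGACTGT and 143 per 1000 (136 to 150) with neither. The part of the model's sequence input in these differences was not tested. Base composition from 50 nt before to 50 nt after the A was close to that of the DRACH sites, with a median GC content of 53.5% (52.5 to 54.5%) against 54.5%.

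Scores of the pyrimidine sites were lower than those of DRACH sites. Their median was 0.604 (0.591 to 0.615), with quartiles of 0.545 and 0.674, against a median of 0.746 (0.743 to 0.748) for DRACH. A score of at least 0.7 was reached by 78 of 479, or 16.3% (13.2 to 19.9%). In the whole list the share was 58.1%, and among DRACH sites 61.1% (60.4 to 61.8%). The highest score was 0.807, so none reached 0.9, as 1676 DRACH sites did. By pentamer, the median was 0.631 for GTACT, 0.592 for TTACT, 0.585 for ATACT, 0.581 for GTACA and 0.560 for GCACT. Sites with C before the A had a median of 0.534 (0.519 to 0.565) and a maximum of 0.624. Pyrimidine sites made up 6.88% (5.83 to 8.11%) of all sites scored below 0.55, 2.50% (1.94 to 3.21%) of those from 0.7 to below 0.75, and 2 of the 6482 sites at 0.8 or more. The list starts above 0.5, and the 5 pyrimidine sites closest to that limit lay in Lgals3bp, Nrros, Inppl1, Ddx24 and Suds3, with scores from 0.5005 to 0.5013. All 5 were in coding sequence, 3 at GTACT and 2 at ATACT.

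Of the 10 pyrimidine sites with the highest scores, 8 are shown with 10 nt on either side, because they give the sequence the model scored best. All 8 were GTACT. Mcm5, a subunit of the replicative helicase, had the highest score of the 8, 0.807, and its window, chr8:75127450-75127470 on the plus strand, was in the 3′ UTR, 138 nt past the start of the stop codon. Foxp1 encodes a forkhead transcription factor, and its site at chr6:98929812-98929832, minus strand, scored 0.798 in the 3′ UTR. Dna2, a nuclease and helicase of DNA replication, followed with 0.794 at chr10:62973430-62973450, plus strand, in the 3′ UTR. Peak1, a pseudokinase of the cytoskeleton, had its site at chr9:56205619-56205639, minus strand, in the 3′ UTR, with a score of 0.783. In Commd5, a COMM domain protein, the site at chr15:76901078-76901098, plus strand, scored 0.782 and lay 11 nt past the start of the stop codon. Rapgef1, an exchange factor for Rap1, reached 0.781 at chr2:29738769-29738789, plus strand, in the 3′ UTR. Tlk2, a tousled-like kinase of chromatin assembly, reached 0.780 at chr11:105281553-105281573, plus strand, also in the 3′ UTR. The Bbof1 site, chr12:84418382-84418402 on the plus strand, scored 0.779 in an intron of the chosen transcript. It also lies within Rnf113a2 on that strand, and the 3′ UTR annotated there is of a transcript without the support required here. Which of these genes the site belongs to was not settled. Positions are on GRCm38, and capitals mark the pentamer, read 5′ to 3′ on the strand of the transcript.
Mcm5: ctggaaatGTACTttggtctg
Foxp1: agggatttGTACTctgtgcat
Dna2: aggtgaatGTACTgttttcaa
Peak1: actttcaaGTACTgttctttg
Commd5: gaaccctgGTACTgtggggtg
Rapgef1: catcaccgGTACTctggggat
Tlk2: ggttccatGTACTgtgaactt
Bbof1: atctcaaaGTACTttttgttt

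The best-scored site of each other pentamer is shown to set the rarer motifs beside GTACT. The highest of these belonged to Mon1b, part of a complex that activates Rab7, with ATACT and a score of 0.764 at chr8:113642155-113642175, plus strand, 37 nt past the start of the stop codon. Zpr1, a zinc finger protein, followed with TTACT and 0.75 at chr9:46281219-46281239, plus strand, 59 nt past the start of the stop codon. Both were followed by GTG in the genome. Myo7a, an unconventional myosin, had the best GTACA, with 0.676 at chr7:98051307-98051327, minus strand, past the end of the chosen transcript and in the 3′ UTR of a transcript without the support required here. Kctd5, an adaptor of a cullin ubiquitin ligase, had the best site with C before the A, GCACT with 0.624 at chr17:24049009-24049029, minus strand, in the 3′ UTR. Edem1, which marks misfolded glycoproteins for degradation, had GTACC with 0.621 at chr6:108855592-108855612, plus strand, in the 3′ UTR. The scores below were nearer to the limit of the list. Hsph1, a chaperone, had ACACT with 0.555 at chr5:149617248-149617268, minus strand, in an intron of the chosen transcript and a 3′ UTR of another. Cd44, the hyaluronan receptor, had TTACC with 0.551 at chr2:102829433-102829453, minus strand, within an intron. Preb, an exchange factor for Sar1, had TCACT with 0.514 at chr5:30955491-30955511, minus strand, in the 3′ UTR. Cap1, a regulator of actin, had the lone ATACC, with 0.505 at chr4:122859976-122859996, minus strand, in the 3′ UTR. Purb, which binds purine-rich nucleic acid, had the lone TTACA, with 0.502 at chr11:6474076-6474096, minus strand, in an annotated 3′ UTR of a transcript without the support required here.
Mon1b: ggctttaaATACTgtgtctac
Zpr1: gttatctgTTACTgtggggaa
Myo7a: aactatttGTACAttgaacgg
Kctd5: tgtccagtGCACTgtggcttt
Edem1: acccaagtGTACCaaaatctc
Hsph1: ctgctcatACACTgaggaggt
Cd44: ggttagttTTACCctactgat
Preb: cctctcgaTCACTctgggtct
Cap1: actgaaatATACCtcaggctg
Purb: aagcatttTTACAatggggat

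The pyrimidine sites lay more often in 3′ UTRs and less often in coding sequence than DRACH sites. On the chosen transcripts, 235 of 479 were in the 3′ UTR, 49.1% (44.6 to 53.5%), against 39.3% (38.6 to 40.0%) of DRACH sites, a difference of 9.77 percentage points (5.26 to 14.3). The CDS held 155, or 32.4% (28.3 to 36.7%), against 40.2% (39.5 to 40.9%), a difference of -7.86 points (-12.0 to -3.48). The 5′ UTR held 2, or 0.418% (0.115 to 1.51%), against 1.99% of DRACH sites. Introns held 24, noncoding exons 14, stretches of the gene beyond the chosen transcript 31, and 18 were in genes without a supported transcript. Of the 73 in introns, beyond the transcript or without one, 36 lay in a 3′ UTR and 31 in the CDS of some annotated transcript. With the support filter dropped, the share in the CDS was 37.2% (33.0 to 41.6%), and where any supported transcript could place a site in a 3′ UTR first, the share there was 56.8% (52.3 to 61.1%). In each of these settings the 3′ UTR held more pyrimidine sites than the CDS. On the chosen transcripts, other listed sites outside DRACH differed among themselves. The 3′ UTR held 58.0% of those that lacked only the C after the A. It held 27.3% of those with only a closing G, and 51.7% of the rest. GTACT sites alone differed from DRACH sites in the 3′ UTR share by 5.54 points (-0.125 to 11.3).

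Region and pentamer were linked. GTACT sites were divided into 130 in the 3′ UTR, 44.8% (39.2 to 50.6%), and 108 in the CDS, 37.2% (31.9 to 42.9%). TTACT lay further towards the 3′ UTR, with 25 of 37 sites there, 67.6% (51.5 to 80.4%), and 6 in the CDS. ATACT had 38 of 71 in the 3′ UTR, 53.5% (42.0 to 64.6%), and GTACA 19 of 35, 54.3% (38.2 to 69.5%). GCACT had 14 of 26 there, 53.8% (35.5 to 71.2%), and the intervals of all these overlapped that of GTACT. Counted per A of the motif, GTACT was listed at like rates in both regions, 26.2 per 1000 (21.8 to 31.6) in coding sequence and 26.4 per 1000 (22.3 to 31.3) in 3′ UTRs. All pyrimidine motifs together were listed 1.87 times per 1000 (1.65 to 2.12) in the 3′ UTR, 1.33 times (1.14 to 1.55) in the CDS and 0.212 times (0.0582 to 0.773) in the 5′ UTR. For DRACH these rates were 49.4, 44.4 and 24.6 per 1000.

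Score and region moved together. Of the 78 pyrimidine sites scored at 0.7 or more, 53 were in the 3′ UTR, 67.9% (57.0 to 77.3%), and 8 in the CDS, 10.3% (5.29 to 19%). DRACH sites from 0.7 to below 0.81 had 41.8% in coding sequence and 37.7% in the 3′ UTR, so the share in the 3′ UTR differed by 30.2 points (19.2 to 39.6) at like scores. Below 0.7, 36.7% of pyrimidine sites were in coding sequence and 45.4% (40.6 to 50.3%) in the 3′ UTR. The median score was 0.624 (0.605 to 0.643) for 3′ UTR sites and 0.573 (0.549 to 0.593) for CDS sites. DRACH sites had the same order, with medians of 0.8 and 0.706. The transcript region is an input of the model, and its part in these differences was not tested.

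Around the stop codon the pyrimidine sites were placed like DRACH sites. On coding transcripts, 131 of 392 lay within 200 nt of the first base of the stop codon, 33.4% (28.9 to 38.2%), against 33.2% (32.4 to 34.0%) of DRACH sites, a difference of 0.205 points (-4.35 to 5.08). Of all exonic A with these pyrimidine motifs, 11.3% lay in that window, which puts the share of the sites at 2.96-fold that of the motif. The comparable value for DRACH was 2.69-fold. Of the 392, 43 lay 1 to 200 nt upstream and 88 from 0 to 200 nt downstream. Further downstream, 66 sites were over 400 and up to 1000 nt past the stop codon, 16.8% (13.5 to 20.9%) against 11% (10.5 to 11.5%) of DRACH sites. Over 1000 nt upstream were 53 sites, 13.5% (10.5 to 17.3%) against 19.9% (19.3 to 20.6%).

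Exon structure separated listed from unlisted motifs. The last exon held 303 of the 406 exonic pyrimidine sites, 74.6% (70.2 to 78.6%), against 69.0% of DRACH sites, a difference of 5.64 points (1.13 to 9.70). The motifs themselves differed in the same way, with 55.9% of all exonic A of the pyrimidine motifs and 51.3% of all exonic DRACH A in the last exon. Internal exons over 400 nt had the highest listing rate for GTACT, at 61.4 per 1000 (44.8 to 83.4). The last exon followed with 31.2 per 1000 (27.0 to 36.1), and first exons had 28.8 per 1000 (16.9 to 48.6), with overlapping intervals. Internal exons of at most 400 nt had 6.51 per 1000 (4.22 to 10.0). GGACT had the same order, with 329, 229, 147 and 44.8 per 1000. The median distance from a pyrimidine site to the nearest exon junction was 411.5 nt, against 311 nt for DRACH sites. Within 50 nt of a junction lay 25 of 406, 6.16% (4.21 to 8.93%), against 5.88% of DRACH sites. The 5 bases read the same on the spliced transcript at each of the 406 sites, so in the chosen transcripts no pyrimidine site was a DRACH motif formed by splicing.

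In coding sequence the codon position of the A was compared with that of all A of the same motifs. Among 155 sites, the A was at the first position of its codon in 44, 28.4% (21.9 to 35.9%), at the second in 64, 41.3% (33.8 to 49.2%), and at the third in 47, 30.3% (23.6 to 38.0%). All A with a pyrimidine motif in these CDS were at 38.4%, 34.4% and 27.2%. TAC, a tyrosine codon, held 59 of the sites, ACT, a threonine codon, 43, and GTA, a valine codon, 40. GTACT sites alone had the same share at the first position as all GTACT in CDS, 23.1% (16.2 to 31.9%) against 23.1%. They had 36.1% (27.7 to 45.5%) at the third position, in GTA, against 25.5% of all GTACT in CDS, and 40.7% (31.9 to 50.2%) at the second, in TAC, against 51.4%. At the second position the share of pyrimidine sites was above that of their motifs, 34.4%, which lay within its interval. DRACH sites had 49.6% there, close to the 50.3% of all DRACH A in these CDS, and pyrimidine minus DRACH sites gave -8.33 points (-15.9 to -0.371). The order of the positions did not hold at a minimum score of 0.7. The 8 pyrimidine CDS sites left there had 12.5% at the first position, 12.5% at the second and 75.0% at the third.

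Most pyrimidine sites had a listed DRACH site close by. On the same strand, 279 of 479 had one within 100 nt, 58.2% (53.8 to 62.6%), and 56.3% (55.6 to 57.0%) of DRACH sites had another DRACH site as close, a difference of 1.96 points (-2.56 to 6.36). The median distance was 70 nt, against 79 nt between DRACH sites. Within 5 nt, 19 had a listed DRACH site, 3.97% (2.55 to 6.11%), against 2.20% of DRACH sites. A DRACH motif, listed or not, lay within 10 nt of 122 pyrimidine sites, 25.5% (21.8 to 29.6%), and for 47 of these sites it was itself listed. Where the nearest DRACH site was within 100 nt, it had the higher score in 243 of 279 pairs, 87.1% (82.7 to 90.5%), by a median of 0.139. The other 36 pyrimidine sites did not score below that DRACH neighbour. Pyrimidine sites were seldom close to each other, with 13 of 479 within 100 nt of another one.

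Motifs near a listed DRACH site were listed more often. Exonic GTACT within 50 nt of a listed DRACH site on the transcript was itself listed in 94 of 551 cases, or 171 per 1000 (141 to 204). From 51 to 200 nt the rate was 68.7 per 1000 (55.7 to 84.3), and farther away or with no DRACH site it was 8.62 per 1000 (6.82 to 10.9). The nearest class thus had 19.8-fold the rate of the farthest. GGACT near another DRACH site was listed at 579 per 1000 (557 to 601) and far from one at 76.6 per 1000 (72.3 to 81.1), a 7.56-fold difference. Over the whole classes the nearest and farthest rates differed 18.3-fold for all pyrimidine motifs and 14-fold for all DRACH motifs, so these folds lay closer together than those of GTACT and GGACT. Sites of 1 stretch share its read depth, and the part of depth in these rates was not tested.

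Of the 4947 genes with any listed site, 430 held a pyrimidine site, or 8.69% (7.94 to 9.51%), and 425 of these were protein-coding. A single pyrimidine site was found in 387 genes, 2 in 37 genes and 3 in 6 genes. In 27 genes no other site was listed, and in 28 there was no DRACH site. Genes with a pyrimidine site had a median of 6 sites of any motif, against 3 in the other genes with a site. The share of genes with one rose from 27 of 1304 genes with 1 site, 2.07% (1.43 to 3.00%), to 105 of 345 genes with 10 to 19 sites, 30.4% (25.8 to 35.5%). With 20 or more sites, 10 of 19 genes held one, 52.6% (31.7 to 72.7%). Counted per site, the share varied less. It was 2.07% (1.43 to 3.00%) in genes with 1 site, 2.14% (1.74 to 2.62%) with 2 or 3 and 2.46% (2.08 to 2.91%) with 4 to 6. It was 2.43% (1.98 to 2.99%) with 7 to 9, 3.01% (2.54 to 3.56%) with 10 to 19 and 2.46% (1.47 to 4.09%) with 20 or more. The class of 10 to 19 sites was the highest, with an interval above the 2.48% of the whole list.

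Genes with 3 pyrimidine sites differed in where these lay. Kbtbd11, a Kelch and BTB domain protein, had 18 sites, and its 3 GTACT sites in the CDS scored 0.672, 0.549 and 0.671. The last pair lay 61 and 46 nt before the stop codon. Rab7b, a small GTPase of endosomal transport, had 17 sites, all in the 3′ UTR, with GTACT sites scored 0.666, 0.575 and 0.613 among DRACH sites that reached 0.979. Iqgap1, a scaffold of the actin cytoskeleton, had TTACT with 0.690 and GTACA with 0.584 in the 3′ UTR and TTACT with 0.559 in the 5′ UTR. That last site was 1 of the 2 pyrimidine sites in a 5′ UTR. Rnf213, a giant ubiquitin ligase, had 43 sites, of which 36 were DRACH. Its pyrimidine sites were GCACT with 0.554 and ATACT with 0.634 and 0.522, in the CDS of transcripts without the support required here. Pip5k1c, a lipid kinase that makes phosphatidylinositol bisphosphate, was tied on the count of 3, with a lower mean score of 0.567, and is named here after its values were seen.

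Gene lists of interest in a macrophage line were counted beside the 8.69% of all genes with a site that held a pyrimidine site. In the macrophage lineage and surface list, 5 of 17 genes with a site held one, 29.4% (13.3 to 53.1%), in 6 sites. Csf1r had GTACT with a score of 0.689 in the 3′ UTR, and Cd14, the coreceptor for lipopolysaccharide, had GTACT with 0.630 in the CDS. Fcgr1, a high-affinity receptor for IgG, had GTACA with 0.581 in its 3′ UTR and GTACA with 0.507 in its CDS. Cebpa, a myeloid transcription factor, had ATACT with 0.580 in a 3′ UTR. Ctsd, the lysosomal protease cathepsin D, had GTACT with 0.609 in the last codons of the CDS, 4 nt before the stop codon.

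Of the Toll-like receptor and NF-kB genes, 3 of 25 with a site held one, 12% (4.17 to 30.0%). Tlr2, the receptor for bacterial lipopeptides, had GTACT in the CDS with 0.546 and with 0.582. Irak1, a kinase downstream of Toll-like receptors, had GTACA with 0.591 in the 3′ UTR, and Traf6, a ubiquitin ligase of the same pathway, had GTACT with 0.604 in the CDS, 15 nt before the stop codon. The Irak1 site lay 5 nt from a DRACH site, AAACA, whose score of 0.578 was lower. In the interferon list, 2 of 21 genes with a site held one, 9.52% (2.65 to 28.9%). Adar, which edits adenosine to inosine in double-stranded RNA, had GTACT with 0.630 in the 3′ UTR.

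Cell cycle genes had 3 of 28, 10.7% (3.71 to 27.2%). Besides Mcm5, these were Ccnd1, which encodes cyclin D1, with GTACT scored 0.661 in the 3′ UTR, and Cdc25a, a phosphatase that activates cyclin-dependent kinases, with GTACA scored 0.604 in the CDS, 20 nt before the stop codon. Among chromatin enzymes and remodellers, 5 of 51 genes held one, 9.80% (4.26 to 21%). The highest score was that of Chd8, a chromodomain helicase, with GTACT at 0.743 in an exon of a noncoding chosen transcript that is CDS in another. Nsd3, a histone methyltransferase, had GTACT with 0.681 in the CDS, 4 nt from a DRACH site, TGACC, scored 0.506. Arid1a, a subunit of the SWI/SNF remodeller, had a GTACT site with 0.638 in the CDS and another with 0.512, 22 nt before the stop codon. The others were Kdm1a, a histone demethylase, with GTACA at 0.538, and Kmt2d, a histone methyltransferase, with ATACT at 0.514.

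Of the writers, erasers and readers of m6A, 2 of 15 genes with a site held a pyrimidine site, 13.3% (3.74 to 37.9%). Mettl16, a methyltransferase of U6 small nuclear RNA, had TTACT with 0.557 in the CDS. Prrc2a, a protein that has been described as a reader of m6A, had GTACT with 0.656 and GCACT with 0.565, both in exon 16 of 31 and 6 and 7 nt from listed DRACH sites. Its GTACT scored above that DRACH neighbour, which had 0.629. Across the 6 lists the shares had wide intervals, and all but that of the macrophage list included the 8.69% of all genes with a site. Because the lists were drawn up with earlier results of these data known, nothing particular to a list is read from this.

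Transcript starts were examined because the antibody also binds N6,2′-O-dimethyladenosine, a cap-adjacent base. Within 5 nt of an annotated start lay 4 of the 479 pyrimidine sites and 71 of the 19301 sites of the list. These were GTACT in Tpi1, an enzyme of glycolysis, with 0.565, TTACT in Iqgap1 with 0.559, GTACT in Adam8, a metalloprotease of leukocytes, with 0.556, and TTACT in Morf4l2, a chromatin protein, with 0.513. At starts of supported transcripts alone there were 2 pyrimidine sites. Within 50 nt of any start lay 14 of the 479 pyrimidine sites and 358 of the 17746 DRACH sites. Whether any of these pyrimidine sites is the cap-adjacent base was not tested. In mouse embryonic stem cells the study examined sites outside DRACH singly, GGATT in Trim27, GTACT in Palm3 and GGACG in Hic2. Of these, only the Palm3 motif meets the rule used here. The study found each of them methylated in a Mettl3-dependent way, with a qPCR assay that uses no antibody. These genes had no pyrimidine site in this line. Trim27 had 5 listed sites, and Palm3 and Hic2 had none.

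Pyrimidine sites were spread over 20 nuclear chromosomes and the mitochondrial genome, 234 on the plus and 245 on the minus strand, and all 479 windows of 21 nt were distinct. The mitochondrial site was GTACA in mt-Nd5, a subunit of respiratory complex I, with a score of 0.582, named here after its value was seen. It was 1 of 2 listed sites in the mitochondrial genome.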

How the data were processed

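Sites came from 1 list pooled over 3 replicates of RAW264.7. Its values are the m6Aboost score that the authors deposited for each site, above 0.5. The submitters' processing notes name STAR 2.7.3a, SAMtools 1.9, UMI-tools 1.0.0, bedtools 2.27.1 and the builds mm10 and GRCm38.p6. Per the study's methods, peaks were called with PureCLIP in each replicate and kept when found in at least 2. Motifs were read from GRCm38 with the start taken as 0-based, and positions are 1-based. Genes came from GENCODE M21, while the authors used a later release. A site went to the gene on its strand, the longest with a supported transcript where several overlapped. Regions were read on the longest transcript by genomic span with a transcript support level of at most 3 and an annotation level of at most 2, with the stop codon counted as CDS. Python 3.11.15, NumPy 2.4.6 and SciPy 1.17.1 were used, and functions were tested on simulated data. No test across replicates was possible. Medians have binomial intervals.

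The sites and lists were chosen with earlier results of these data known. Named sites were the 10 with the highest score, the best of each pentamer, those of the 5 genes with most, those in the gene lists or at transcript starts, those in Trim27, Palm3 and Hic2, and the 5 lowest. Windows of 21 nt are shown for sites of the first and second of these groups, and not every site of the rule is named. Alternatives were other minimum scores, motif rules, transcripts and windows, and sites within 5 nt collapsed. Other cell lines and tissues were not analysed here.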

Additional observations from a re-analysis of the deposited data

How the results depend on the processing

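The 16 results were recomputed in 53 alternatives. In 30 the value stayed within its 95% interval or, for counts, within 1.5-fold. With a minimum score of 0.7, 78 pyrimidine sites were left, 100% with T before the A and 84.6% at GTACT. Of these 10.3% were in the CDS, 67.9% in the 3′ UTR, 0% in the 5′ UTR and 92.1% of the exonic ones in the last exon. The 8 CDS sites had the A at the first codon position in 12.5%, the second in 12.5% and the third in 75.0%. The listing rate was 0.285 per 1000 and 1.88% of genes with a site held one. The share near the stop codon and the share near a DRACH site stayed within their intervals at that score. With a minimum of 0.9, 0 sites were left, so shares could not be given. The start read as 1-based also left 0 sites. Without the support filter 37.2% lay in the CDS. With the 3′ UTR of any supported transcript taken first, 56.8% lay in the 3′ UTR. Other windows changed shares by construction: 17.9% within 100 nt and 50% within 400 nt of the stop codon, and 41.5% within 50 nt and 72.0% within 200 nt of a DRACH site. Within 50 nt of a transcript start lay 14 sites, and 2 within 5 nt of a supported one. Over transcripts of genes with a pyrimidine site alone the listing rate was 15.7 per 1000, which follows from choosing those genes by their sites. For the support filter and minimum score, the cause was not tested. No paired analysis was possible because there is 1 condition and 1 list pooled over its replicates, and no replicate could be left out. Depth per site is unknown, the score is a model output that reads motif and region, and sites of 1 transcript are not independent.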
